A study of Homo sapiens with 8 samples.

Results

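The comparison described here set 1 µM against 0.5 µM SAHA in a Jurkat clone that resists TRAIL, with 2 arrays at each dose, so that 4 of the 8 arrays of the series carried it. SAHA (suberoylanilide hydroxamic acid, vorinostat) is a small-molecule inhibitor of histone deacetylases. Jurkat is a human T cell leukaemia line, and the clone, called TR1, was raised from it by keeping the cells in TRAIL at 1000 ng/mL for 12 weeks. Both SAHA groups were TR1 cells exposed to the drug for 12 h, and they differed in dose alone as far as the labels say. The remaining arrays held untreated TR1 (2 arrays) and untreated wild-type Jurkat, labelled WT (2 arrays). They supplied the background level of each gene and shared in the estimate of the spread. The labels describe biological duplicates and name no further detail of the cultures, so the p-values cover the spread between such duplicates only. TR1 is a single clone in this series, and none of the 8 arrays holds WT cells with SAHA. No group received TRAIL alongside SAHA as far as the labels state.

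Histone deacetylases remove acetyl groups from the lysines of histones and of other proteins. Their inhibition raises histone acetylation within hours, and in many cell lines it moves large numbers of genes in both directions, among them cell cycle inhibitors, silent tissue-specific genes and genes of apoptosis. TRAIL kills cells through the death receptors encoded by TNFRSF10A (TRAIL-R1, DR4) and TNFRSF10B (TRAIL-R2, DR5), which recruit FADD and caspase-8 and can be held back by CFLAR (c-FLIP) and by proteins of the BCL2 family. The series title places histone deacetylase inhibitors in the setting of sensitising resistant cells to TRAIL, and 2 doses allow the transcripts that still moved between them to be listed.

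The genes with the largest differences between the doses lay behind promoters of very different composition, and 5 of them are shown to make that visible. They are the 3 with the largest increases and the 2 with the largest decreases among called genes with a single start in the RefSeq table (GRCh38.p14). Each line gives the 250 bases before the start on the gene's strand, 5′ to 3′. Capitals mark GGGCGG (the GC box), the CCAAT box and, for the TATA box, the letters TATAAA, each on either strand, and GC boxes that overlap run together.
TMEM158: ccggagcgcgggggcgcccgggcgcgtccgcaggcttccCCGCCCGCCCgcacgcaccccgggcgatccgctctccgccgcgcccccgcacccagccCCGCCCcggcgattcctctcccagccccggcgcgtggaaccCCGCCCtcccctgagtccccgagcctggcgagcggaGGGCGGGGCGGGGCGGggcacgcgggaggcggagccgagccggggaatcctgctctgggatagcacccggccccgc
DHRS2: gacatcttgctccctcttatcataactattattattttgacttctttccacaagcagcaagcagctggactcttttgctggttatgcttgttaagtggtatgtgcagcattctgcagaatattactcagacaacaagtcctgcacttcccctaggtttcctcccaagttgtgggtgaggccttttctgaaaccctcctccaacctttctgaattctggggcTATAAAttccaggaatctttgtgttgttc
H2BC5: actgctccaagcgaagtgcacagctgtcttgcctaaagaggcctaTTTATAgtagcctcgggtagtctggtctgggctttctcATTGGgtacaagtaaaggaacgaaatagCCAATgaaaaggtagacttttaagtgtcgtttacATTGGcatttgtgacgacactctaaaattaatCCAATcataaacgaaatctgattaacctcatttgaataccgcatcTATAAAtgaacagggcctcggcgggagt
PVRIG: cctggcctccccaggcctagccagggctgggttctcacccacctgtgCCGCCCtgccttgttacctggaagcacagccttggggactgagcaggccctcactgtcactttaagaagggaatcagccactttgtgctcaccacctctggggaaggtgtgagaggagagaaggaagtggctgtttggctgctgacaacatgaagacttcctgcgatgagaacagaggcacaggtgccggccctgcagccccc
RGL4: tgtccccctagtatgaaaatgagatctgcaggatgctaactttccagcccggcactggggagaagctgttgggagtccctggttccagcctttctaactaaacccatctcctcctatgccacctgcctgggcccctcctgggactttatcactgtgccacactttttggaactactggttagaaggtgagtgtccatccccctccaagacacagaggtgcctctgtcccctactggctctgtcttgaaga
The TMEM158 window (chr3:45226288-45226537, minus strand) was 82.4% G or C with 39 CpG and held 7 GC boxes. The DHRS2 window (chr14:23629865-23630114, plus strand) was 43.2% G or C with 0 CpG and had a TATA box that began 29 bases before the start. The H2BC5 window (chr6:26157871-26158120, plus strand) held 4 CCAAT boxes and a TATA box 28 bases before the start, with another TATA match on the opposite strand. PVRIG (chr7:100219699-100219948, plus strand) had 1 GC box, and RGL4 (chr22:23690763-23691012, plus strand) had none of these letters. Across the promoter table, a GC box was present in 65.9%, a CCAAT box in 35.6% and a TATA box in 5.5% of the 8652 windows of tested genes. For the 26 windows of genes called higher these shares were 50%, 30.8% and 15.4%, and for the 11 of genes called lower 54.5%, 27.3% and 9.1%. These are counts of letters in a window and say nothing of which factor was bound.

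Expression differences between the doses were small for most transcripts. The largest called increase was that of TMEM158, which was 4.16-fold higher at 1 µM, followed by DHRS2 (3.23-fold), the histone gene H2BC5 (2.61-fold) and CRIP2 (2.33-fold), and the largest called decreases, of TRAF3IP2 and CD1B, were 1.93- and 1.91-fold. The test covered the 12743 of 22184 probes (57.4%) that 2 or more of the 4 SAHA arrays detected, with detection meaning a deposited detection p-value below 0.05. At a Benjamini-Hochberg adjusted p below 0.05 in limma, 57 probes were called (0.447% of those tested), 36 higher at 1 µM (0.283%) and 21 lower (0.165%). A share of 16.8% (2136 probes) had an unadjusted p below 0.05, 983 higher (7.71%) and 1153 lower (9.05%). Of the called probes, 11 had a measured difference of at least 2-fold (0.0863%), all higher at 1 µM. For 10 of them at least 1 of the 2 arrays at 0.5 µM detected the probe, and for SCG2 and STAP1 it was 1 array only. For the other, SLC8A2, the floor at 0.5 µM leaves at least 1.55-fold with the background correction used. In RNA from a whole culture, a change in every cell and a change in the share of cells that carry a transcript cannot be told apart.

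The median log2 difference over all tested probes was -0.004, with quartiles of -0.14 and 0.14. The SD of that difference, which is between means of 2 arrays, was 0.23, where the duplicates at the 2 doses alone would give 0.15. Single duplicates differed with an SD of 0.20 at 0.5 µM, 0.23 at 1 µM, 0.21 in untreated TR1 and 0.26 in WT. All 57 called probes had both arrays of one dose above both of the other, which was also true of 50.5% of all tested probes. The count depended on the arrays that carried the spread. Without either one of the 0.5 µM arrays 1 probe was called, without array A or B at 1 µM 2 or 1, and without either untreated TR1 array 12. Without either WT array 89 were called. With the 4 SAHA arrays fitted alone, 1 probe was called, the one for TMEM158. The split also moved with the scaling, from 36 higher and 21 lower to 57 and 15 with median scaling of the arrays, which moved the median over all tested probes from -0.004 to 0.0505, and to 107 and 118 without background correction. Without that correction 23 of the 57 differences were over 1.5 times smaller. All 57 differences had the same sign in every alternative in which the probe was tested. Their doses did not overlap to begin with, so leaving out an array could hardly turn a sign, and this does not strengthen the calls.

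**Figure D1:**
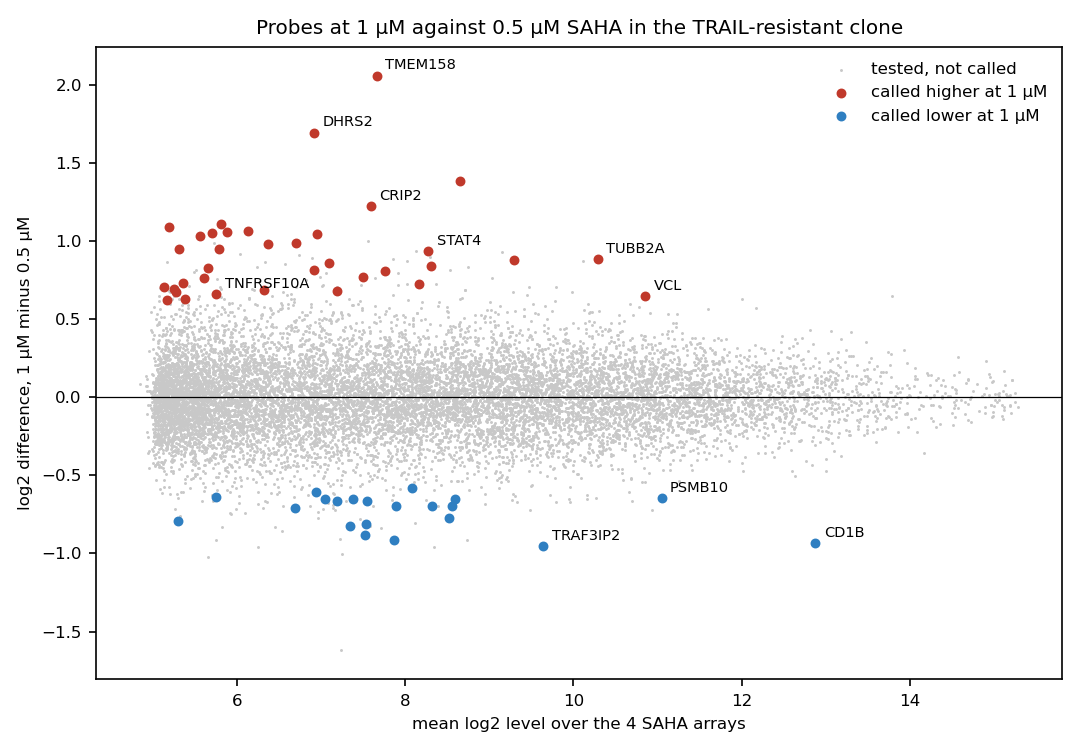
Each point is 1 of the 12743 tested probes, with its mean log2 level over the 4 SAHA arrays on the x axis and the log2 difference, 1 µM minus 0.5 µM, on the y axis. Red points are the 36 probes called higher and blue points the 21 called lower. The calls lie at the rim of a band centred on 0, and TMEM158 and DHRS2 lie farthest above it.

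TMEM158, a membrane protein gene first described as induced by Ras signalling, had log2 levels of 6.63 and 6.63 at 0.5 µM and 8.68 and 8.69 at 1 µM. Untreated TR1 gave 5.19 and 5.38, so that each dose group lay wholly above the one before it. The difference of 2.06 (SE 0.10, n = 2 arrays a dose) had an adjusted p of 0.000334 in limma, and TMEM158 was the one gene called in all 19 alternative settings. Leaving out any one SAHA array left its difference between 2.05 and 2.07 with adjusted p between 0.0088 and 0.0112. For every other called probe, leaving out any single SAHA array raised the adjusted p above 0.05.

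DHRS2, which encodes a mitochondrial short-chain dehydrogenase, read 5.94 and 6.22 at 0.5 µM and 7.82 and 7.71 at 1 µM (difference 1.69, SE 0.23, adjusted p 0.0333 in limma). It was not detected on the untreated TR1 arrays, where its values were 5.15 and 4.60. H2BC5, a histone H2B gene of the cluster on chromosome 6, read 8.0 and 7.92 at 0.5 µM and 9.33 and 9.36 at 1 µM. The untreated values of H2BC5 were 6.93 and 6.77, and a further probe for the same gene rose by a log2 difference of 0.72, with an adjusted p of 0.0343. CRIP2, a LIM domain protein, read 6.97 and 7.0 at 0.5 µM and 8.14 and 8.28 at 1 µM. For these 3 genes the duplicates lay within 0.28 of each other at both doses and the doses did not overlap. The adjusted p in limma was 0.00818 for the brighter H2BC5 probe and 0.0262 for CRIP2.

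Several of the largest increases were those of genes best known from neurons and endocrine cells. NELL2, a secreted glycoprotein with EGF-like repeats, read 5.19 and 5.33 at 0.5 µM and 6.27 and 6.46 at 1 µM, a rise of 2.15-fold. AMPH (amphiphysin, of synaptic vesicle endocytosis) rose by 2.09-fold, DPYSL3 (CRMP4, of axon guidance) by 2.08-fold and SCG2 (secretogranin II, of dense-core granules) by 2.07-fold. All 4 were undetected on both untreated TR1 arrays and on both WT arrays. Without background correction their log2 differences were 0.56, 0.59, 0.54 and 0.52, in place of 1.11, 1.07, 1.06 and 1.05, and all 4 were still called. SCG2 was detected on 1 of the 2 arrays at 0.5 µM, with values of 5.35 and 5.01, and on both at 1 µM, with 6.04 and 6.42. Its duplicates at 1 µM were 0.37 apart, the widest gap among these genes.

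PRPH, which encodes the neuronal intermediate filament peripherin, moved from untreated values of 4.67 and 4.62 to 6.24 and 6.19 at 0.5 µM and 7.28 and 7.13 at 1 µM. Its adjusted p between the doses was 0.0107. KCNS3, a modulatory subunit of voltage-gated potassium channels, read 6.45 and 6.40 at 0.5 µM against 7.47 and 7.46 at 1 µM, and was already detected untreated. SLC8A2, a sodium/calcium exchanger of brain, was not detected at 0.5 µM (4.63 and 4.68) and was detected at 1 µM (5.67 and 5.81). Its increase was therefore written as at least 1.55-fold, and its measured values at 0.5 µM lay at those of untreated TR1 (4.55 and 4.70). Without background correction the SLC8A2 log2 difference was 0.54 in place of 1.09, so that fold depends on the correction. Of the neuronal gene list as a whole, 14 of 26 genes were tested, 2 were called higher (DPYSL3 and SCG2) and 0 lower, and the list's median log2 difference was 0.17, against -0.003 over the 10444 tested genes, of which 0.44% were called. NELL2, AMPH, PRPH, KCNS3 and SLC8A2 are not in that list and are placed beside it after their values were seen.

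**Figure D2:**
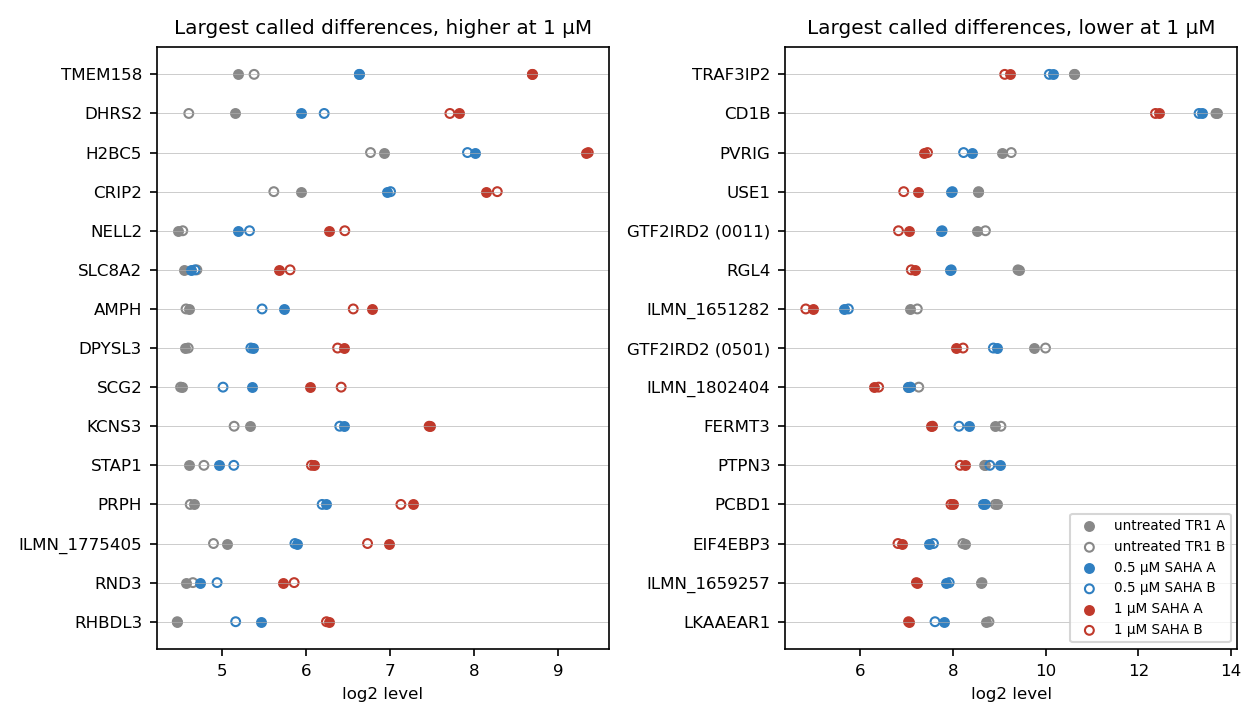
Normalized log2 level (x axis) on the 6 TR1 arrays for the 15 largest called increases (left panel) and the 15 largest called decreases (right panel), with filled circles for array A and open circles for array B of each group. Red points (1 µM) lie beyond blue points (0.5 µM) on every line, and for most probes the grey untreated points lie on the far side of the blue ones.

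The remaining increases included regulators of signalling and of the cytoskeleton. STAT4, the transcription factor of interleukin-12 signalling, read 7.76 and 7.86 at 0.5 µM and 8.59 and 8.90 at 1 µM, against 5.68 and 5.77 untreated and 7.84 and 7.90 in WT. Both STAT4 arrays at 1 µM lay above WT, and those at 0.5 µM overlapped with it. PPP2R2B, a regulatory subunit of protein phosphatase 2A, read 6.91 and 6.74 in WT, 4.69 and 4.72 in untreated TR1 where it was not detected, 7.14 and 7.10 at 0.5 µM and 7.86 and 7.92 at 1 µM. The PPP2R2B groups did not overlap at any step. STAT4 rose by 1.91-fold between the doses (adjusted p 0.0324 in limma) and PPP2R2B by 1.70-fold (adjusted p 0.0296).

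TUBB2A, a beta tubulin, read 9.79 and 9.89 at 0.5 µM and 10.66 and 10.80 at 1 µM, and VCL (vinculin, of focal adhesions) read 10.49 and 10.57 against 11.23 and 11.12. Both had duplicates within 0.14 of each other and doses apart. RND3 was undetected at 0.5 µM and rose by at least 1.60-fold with the background correction used, to 5.72 and 5.86. Without that correction the RND3 log2 difference was 0.45 in place of 0.95. STAP1, an adaptor of tyrosine kinase signalling in blood cells, rose by 2.04-fold and RHBDL3, a rhomboid-like protein, by 1.93-fold. STAP1 was detected on 1 array at 0.5 µM, and without background correction its log2 difference was 0.49 in place of 1.03. The smaller increases included TNFRSF19 (a TNF receptor family member, 1.81-fold), STK17B (the kinase DRAK2, 1.79-fold), MVP (the major vault protein, 1.75-fold), RGS2 (a regulator of G protein signalling, 1.61-fold) and GJB2 (connexin 26, 1.60-fold). STK17B read 7.85 and 7.84 untreated, 7.91 and 7.87 at 0.5 µM and 8.76 and 8.69 at 1 µM, and at 0.5 µM its adjusted p against untreated was 0.824.

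The remaining called increases were SGCE (1.77-fold), FAM241A (1.76-fold), SGIP1 (1.70-fold), PPP1R14C (1.66-fold) and 2 probes without a gene name in the annotation used here. They were joined by MAST1, TAGAP, SYBU, LHX4 and 1 probe for BAD, which were below detection at 0.5 µM. With the background correction used they rose by at least 1.30-, 1.40-, 1.42-, 1.51- and 1.29-fold. Without it their log2 differences were 0.33, 0.32, 0.30, 0.28 and 0.29. None of them was then called (adjusted p in limma 0.0700, 0.0649, 0.0914, 0.0904 and 0.0824). TAGAP, a GTPase-activating protein of activated T cells, had another probe that was not called. BAD, a pro-apoptotic BCL2 family member, had 2 brighter probes with differences of 0.22 and 0.02 that were not called, so its probes disagreed.

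Of the 21 probes called lower, 20 were detected on all 6 TR1 arrays. TRAF3IP2 (Act1, an adaptor of the interleukin-17 receptor) read 10.16 and 10.08 at 0.5 µM and 9.22 and 9.11 at 1 µM, against 10.61 and 10.62 untreated. CD1B, a lipid antigen-presenting molecule of cortical thymocytes, fell from 13.37 and 13.31 to 12.45 and 12.37. PVRIG, an inhibitory receptor of T and NK cells, fell from 8.41 and 8.23 to 7.37 and 7.45. The duplicates of these 3 genes lay within 0.19 of each other and the doses did not overlap, with log2 differences of -0.95, -0.93 and -0.91 and adjusted p in limma of 0.0107, 0.0107 and 0.0262.

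USE1, a SNARE protein of transport from the Golgi to the endoplasmic reticulum, fell by 1.85-fold, to values of 7.24 and 6.94 that were 0.30 apart. RGL4, related to the exchange factors of Ral GTPases, fell by 1.76-fold and had already fallen at 0.5 µM, from 9.43 and 9.40 to 7.94 and 7.96. GTF2IRD2, of the TFII-I family, was lower with both of its probes, by 1.77- and 1.71-fold, and a signal from its near-identical copy GTF2IRD2B cannot be told apart from it here. PCBD1, a pterin dehydratase that also binds the transcription factor HNF1, was lower with both probes as well, by 1.62- and 1.5-fold.

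FERMT3 (kindlin-3, an activator of integrins on blood cells) fell by 1.62-fold and PTPN3, a tyrosine phosphatase, by 1.62-fold. PTPN3 was the one gene called lower whose 0.5 µM level (9.01 and 8.79) was not between untreated (8.69 and 8.68) and 1 µM (8.25 and 8.16). Further decreases were EIF4EBP3 (an inhibitor of the translation factor eIF4E, 1.59-fold), LKAAEAR1 (1.57-fold), TXNRD2 (mitochondrial thioredoxin reductase, 1.57-fold), RRP12 (of ribosome biogenesis, 1.57-fold) and PSMB10 (an immunoproteasome subunit, 1.56-fold). ZFX, a zinc finger transcription factor, fell by 1.52-fold. The other 4 called decreases were probes without a gene name in that annotation, of which 1, ILMN_1651282, was no longer detected at 1 µM.

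Among the genes of TRAIL signalling, TNFRSF10A was called and no other. Its log2 level was 4.73 and 4.72 in untreated TR1 and 4.47 and 4.52 in WT, below detection in both. It was 5.47 and 5.38 at 0.5 µM and 6.12 and 6.05 at 1 µM, detected on all 4 arrays. The 3 TR1 groups did not overlap, and the step between the doses was 1.58-fold (log2 difference 0.66, SE 0.09, adjusted p 0.035 in limma). Without a given SAHA array the TNFRSF10A difference was between 0.61 and 0.71 with adjusted p from 0.149 to 0.274. Without background correction the difference was 0.32 (adjusted p 0.0598), and TNFRSF10A was called in 7 of the 18 alternatives that tested it.

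The list of TRAIL receptors and death signalling had 18 of 25 genes tested, with 1 called higher, 0 called lower and a median difference of 0.00. The members described next were picked after their values were seen. TNFRSF10B, the other death receptor of TRAIL, read 9.71 and 9.76 at 0.5 µM and 10.07 and 10.09 at 1 µM, with an adjusted p of 0.21. CASP8, the initiator caspase, read 6.74 and 6.83 against 7.34 and 7.01 (adjusted p 0.208). For both genes the doses did not overlap, as for 50.5% of all probes, and neither passed the test. CFLAR, the inhibitor of caspase-8 activation, read 7.02 and 6.75 against 6.61 and 6.34, a difference of -0.41 with an SE of 0.18 and an adjusted p of 0.293. TNFSF10, the TRAIL gene itself, differed by 0.00 (SE 0.18).

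In the BCL2 family, 16 of 18 genes were tested on their brightest probe, 0 were called and the median difference was -0.07. The lowest p was that of BMF, a BH3-only gene, with 5.38 and 5.82 at 0.5 µM, 6.14 and 6.26 at 1 µM and an adjusted p of 0.195. BCL2, BCL2L1 and MCL1, which protect cells from apoptosis, had differences of -0.17, -0.19 and 0.01, none of which passed the test. The duplicates of MCL1 were 0.55 apart at 0.5 µM and 0.49 apart at 1 µM, with array B higher each time, so that its SE of 0.34 leaves a wide range for any difference. Of the 4 tested inhibitors of apoptosis none was called, and the lowest adjusted p was that of BIRC6 (0.169).

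**Figure D3:**
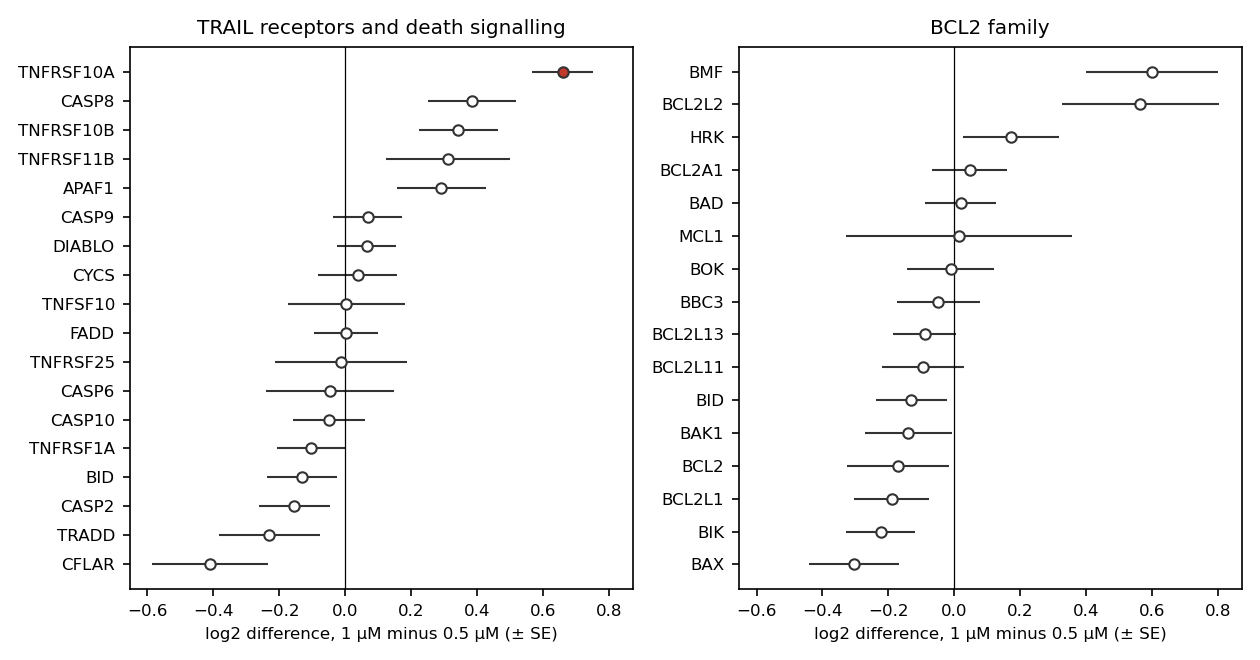
Log2 difference, 1 µM minus 0.5 µM (x axis), with its SE as a bar for the tested genes of TRAIL receptors and death signalling (left panel) and of the BCL2 family (right panel), each on its brightest probe. The filled red point is TNFRSF10A, the one called gene in these lists, and the open points are genes that were not called.

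SAHA binds the zinc-dependent histone deacetylases, and 12 of 16 genes were tested in a list of deacetylases that also holds sirtuins. None was called, 9 of 12 differences were above 0 and the median was 0.17. The lowest p was that of HDAC3, with 10.85 and 10.86 at 0.5 µM, 11.20 and 11.20 at 1 µM and an adjusted p of 0.20. Among histone genes, 18 of 22 were tested, and H2BC5 alone was called. H3-3B, which encodes histone H3.3, was next, with a difference of 0.37 and an adjusted p of 0.178, and the median of the list was 0.11.

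Genes of the cell cycle gave no call. CDKN1A, the CDK inhibitor p21, had values of 7.33 and 7.40 untreated, 8.71 and 8.68 at 0.5 µM and 9.68 and 9.56 at 1 µM. Its groups did not overlap, and its log2 difference of 0.93 (SE 0.17) missed the threshold with an adjusted p of 0.0624. In 7 of 19 alternatives CDKN1A was called. CCND1, cyclin D1, missed it as narrowly, with 5.84 and 5.87 against 6.73 and 6.36 (adjusted p 0.0626). Over the list of CDK inhibitors and G1 arrest, 15 of 20 genes were tested, 0 were called, and the median was 0.14. In DNA replication and S phase (28 tested, median 0.03) and in mitosis (27 tested, median 0.07) the lowest adjusted p were those of MCM5, a replicative helicase subunit (0.144), and of UBE2C, which tags cyclins for destruction (0.0962).

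Genes of T cell identity lay mostly below 0 in the difference between the doses, without a call. In the list of T cell receptor signalling 24 of 27 genes were tested, 7 of them above 0, and the median was -0.17. At an unadjusted p below 0.05, 2 members were higher and 7 lower, where 7.94% and 9.35% of all tested genes were. CD3E, a chain of the T cell receptor complex, read 9.57 and 9.60 at 0.5 µM and 8.90 and 9.03 at 1 µM (adjusted p 0.0781), and ZAP70, the kinase it recruits, differed by -0.40 (adjusted p 0.175). CD3D went the other way, with 5.06 and 5.26 against 5.43 and 5.74 (adjusted p 0.189).

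NOTCH1, a receptor that drives T cell development and T cell leukaemia, read 10.25 and 10.34 at 0.5 µM and 9.76 and 9.48 at 1 µM, against 11.14 and 11.24 untreated. Its adjusted p between the doses was 0.0624. HES1 and DTX1, targets of NOTCH signalling that were picked after their values were seen, differed by -0.40 and -0.42 (adjusted p 0.181 and 0.154). Other members of their list rose, and its differences ran from -0.67 to 0.76. At an unadjusted p below 0.05 in limma, 3 members were higher and 5 lower, where 7.94% and 9.35% of all tested genes were. Over the 20 tested T lineage and leukaemia transcription factors, 0 were called and the median was -0.06, and it was 0.0144 with median scaling of the arrays, where the median over all tested probes was 0.0505. MYC differed by -0.36, with 11.77 and 11.81 against 11.44 and 11.43 and an adjusted p of 0.144, and the median over MYC and genes of ribosome biogenesis was -0.08.

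The T cell marker genes were checked as a list. All of them are also members of the list of T cell receptor signalling, so the 2 lists are not separate observations. All 11 were on the array, and 10 or 11 were detected on each array. Their normalized signal, summed over all probes of each gene, was 23382 and 23477 in untreated TR1. It was 19510 and 18761 at 0.5 µM and 16154 and 14662 at 1 µM, with 0 of the 11 called between the doses. In the lists for other cell types, members undetected on all 8 arrays included MS4A1 and PAX5 (B cell) and CD14 and MPO (myeloid). HBB and ALAS2 (erythroid) and EPCAM and COL1A2 (epithelial cell or fibroblast) were likewise undetected on all 8. Other genes of these lists were detected on all 8 arrays, namely CD79A, CD79B and BLK (B cell), CD68 and FCER1G (myeloid), HBA1 (erythroid) and KRT18 (epithelial). COL1A1 was detected on the 4 SAHA arrays and on none of the others, and CD22 on 2 of the 4. LYZ, CDH1 and DCN were each detected on 3 of the 8 arrays, HBG2 on 2 and BLNK on 1. The part of the T cell markers' lower sum in the other differences was not tested.

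Across all 28 lists of processes, 435 of 558 genes were tested, 5 were called higher and 0 lower. That is 1.15% of the tested list genes, beside 0.44% of all tested genes, and 24 of the lists had no called member. Genes called lower, such as TXNRD2, RRP12, PSMB10 and CD1B, are not members of any list. The lists therefore do not speak for related genes outside them. Beside H2BC5, TNFRSF10A, DPYSL3 and SCG2, the fifth call was TUBB2A, in the list of tubulins. HLA-DMB, which loads peptides onto MHC class II, came close with 6.44 and 6.23 at 0.5 µM and 7.0 and 6.92 at 1 µM (adjusted p 0.0575), in a list of 16 tested genes of antigen presentation with a median of 0.07. IFI35, an interferon-induced gene, differed by -0.74 (adjusted p 0.0624) and HSPA5, the chaperone BiP of the endoplasmic reticulum, by -0.54 (adjusted p 0.0624). Over 13 tested p53 targets the median was 0.24. In limma, 6 of them were higher and 1 lower at an unadjusted p below 0.05, where 7.94% and 9.35% of all tested genes were. CDKN1A, which is also in the list of CDK inhibitors, was among those that rose (difference 0.93, adjusted p 0.0624). TP53I3, picked after its values were seen, went the other way, with a difference of -0.56 (adjusted p 0.0781).

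Lists of metabolism, repair, stress and chromatin enzymes held no called gene. The lowest adjusted p was 0.123 in cholesterol synthesis (INSIG1, difference 0.39), 0.347 in glycolysis (PKM, -0.28), 0.242 in DNA repair (LIG1, -0.32) and 0.185 in oxidative stress (SOD2, 0.34). It was 0.437 among cytosolic ribosomal proteins (RPL7, 0.27), and 0.0932 in autophagy and lysosome, where WIPI1, a protein of autophagosome formation, read 5.78 and 5.92 against 6.28 and 6.44. Among stress and inflammatory genes it was 0.268 for heat shock proteins and chaperones (BAG1, -0.35), 0.181 for targets of NF-kB (NFKBIE, -0.29) and 0.181 for immediate early genes (DUSP2, -0.50). Among chromatin enzymes it was 0.255 for acetyltransferases and readers (EP300, -0.44) and 0.178 for methylation enzymes (EZH2, 0.32).

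**Figure D4:**
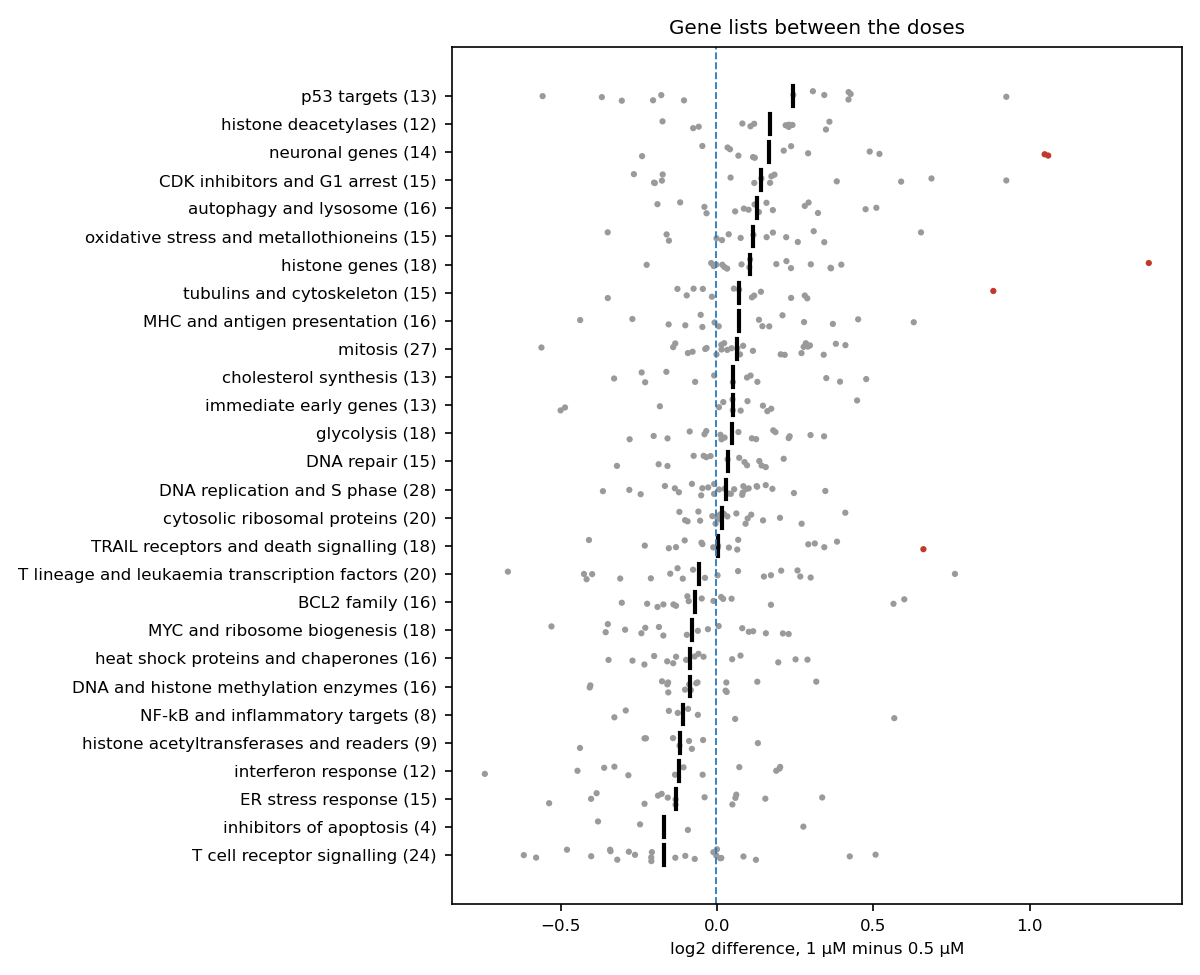
Log2 difference, 1 µM minus 0.5 µM (x axis), of every tested gene (1 point a gene, brightest probe) in the 28 lists of processes, with the number tested in brackets and the list median as a black bar. Red points are called genes, 5 in all and all higher at 1 µM, and the dashed line marks the median over all tested genes (-0.003).

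Some of the widest differences were not called. CERKL, a ceramide kinase-like gene chosen here after its values were seen, had the lowest difference of all probes at -1.62. It read 8.08 and 8.01 at 0.5 µM but 7.11 and 5.74 at 1 µM, so that its 1 µM duplicates were farther apart than array A was from 0.5 µM (SE 0.37, adjusted p 0.101). IGLL1, part of the surrogate light chain of the pre-B cell receptor and also chosen in this way, was lower with both of its probes, by differences of -1.0 and -1.02. The brighter IGLL1 probe read 7.72 and 7.77 at 0.5 µM and 6.80 and 6.69 at 1 µM, with both duplicates close, and its adjusted p was 0.0694. Its WT duplicates, which share in the spread, were 9.02 and 8.33.

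Most called genes had already moved the same way at 0.5 µM. The called increases had a median level of 4.93 without drug, 5.93 at the lower dose and 6.76 at the higher, and for 34 of the 36 probes the 0.5 µM mean lay between the others. The called decreases had medians of 8.74, 7.97 and 7.22, and 20 of 21 were ordered likewise. The share of all tested probes with such an order was not counted, so the order cannot be called particular to the called probes. Against untreated TR1, 25 of the 36 were also called higher at 0.5 µM (background 4.78%), 1 was called lower (the dim BAD probe) and 10 were not called. Of the 21, 15 were called lower at 0.5 µM (background 2.93%) and 6 were not called. Both contrasts hold the 0.5 µM arrays, and the contrasts with untreated TR1 share its arrays. Over all tested probes, 983 were called at 0.5 µM (7.71%) and 3429 at 1 µM (26.9%), counts that fell to between 203 and 270 and between 1724 and 2276 when 1 array of the groups compared was left out.

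The called increases also included transcripts that crossed the detection limit. Of the 36 probes, 21 were undetected on both untreated TR1 arrays and 7 on both arrays at 0.5 µM, while 13 were detected on all 6 TR1 arrays. The 7 passed the filter through the 1 µM arrays alone, so their detection at 1 µM was set by the filter. The shares of all tested probes with these patterns were not counted, so these numbers describe the called probes only. Counted over all probes, 6 went from undetected on both 0.5 µM arrays (detection p at or over 0.05) to below 0.01 on both 1 µM arrays. They were SLC8A2, RND3, TAGAP and LHX4, which were called, GEM (a small GTPase) and 1 unnamed probe. In the opposite direction there were 2, ILMN_1651282 and 1 probe of PIGO, an enzyme of GPI anchor synthesis, whose difference of -0.76 had an adjusted p of 0.0624. Between duplicates, 136 probes crossed at 0.5 µM and 358 at 1 µM, of which 350 were seen on array B only. There 1 array stood against 1, which is a looser demand than both arrays against both, so these counts are not on equal terms with those between the doses. That array also detected more probes (12968) than array A at 1 µM (12089).

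**Figure D5:**
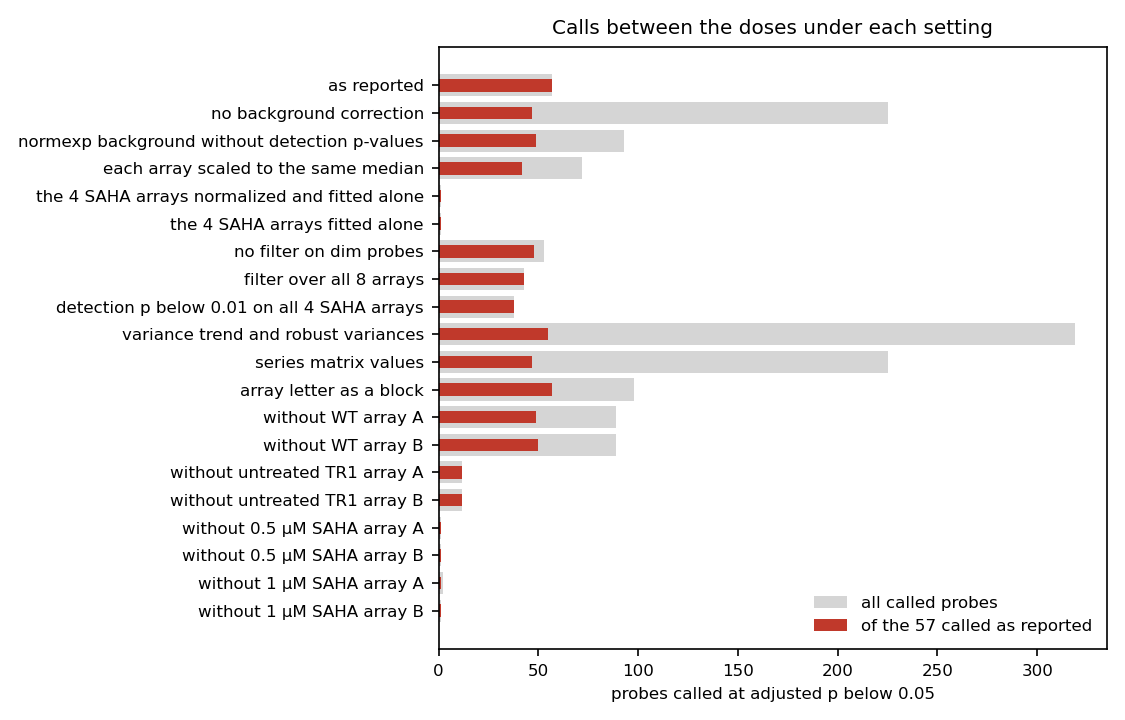
Number of probes called between the doses (x axis) as reported and under each of the 19 alternatives. Grey bars are all called probes and red bars those among the 57 called as reported. Red bars fall to 1 when the SAHA arrays are fitted alone or when any one of them is left out, and grey bars reach 319 with a variance trend.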

How the data were processed

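RNA from 8 cultures in 4 groups of 2 was measured on Illumina HumanRef-8 arrays. The authors deposited a probe intensity for each array, not normalized, with a detection p-value beside each intensity per the file headers. The submitters' processing notes name limma. The extraction program is not given in the sources used here. Columns carry a group and the letter A or B and were assigned to groups by name (columns of no sample: 0). By their values, columns A and B matched the series matrix samples numbered 1 and 2 in every group. Signals were processed with limma 3.58.1 (R 4.3.3) neqc on all 8 arrays: background from the detection p-values, offset 16, quantile normalization and log2. The offset shrinks differences of dim probes. A linear model with 4 group means, 4 residual and 4.12 prior degrees of freedom, gave two-sided tests with Benjamini-Hochberg adjustment over all 12743 probes, called below 0.05. Where both arrays of a dose missed detection, a fold is written "at least": the detection floor of each array, or the measured value if greater, stood in for the missing level. Such a fold is a lower bound under this background correction only. The platform annotation gave 19715 probes 1 gene and none to 2469. A list used each gene's brightest probe. Up to 15 called probes per direction, the called members of each list and otherwise its lowest p were named, and further genes where stated. The members and lists were chosen with earlier results of these data known. The method was tested on simulated data in which only brighter probes changed, so calls of dim probes were not covered. Array number limits the precision.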

Additional observations from a re-analysis of the deposited data

How the results depend on the processing

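Precision was limited by 2 arrays a dose, and dim probes sat close to background, where the offset and the background correction set the size of a difference. Of 1048 repeats of the 57 called differences, 555 passed the threshold with the same sign and 493 kept the sign without passing. A kept sign adds little here, since the doses of these probes did not overlap in the first place. The count of 57 became 225 without background correction, 93 with a background fitted without detection p-values, 319 with a variance trend and robust variances, 225 with the series matrix values, and 1 with the 4 SAHA arrays normalized and fitted alone or fitted alone. It ranged from 1 to 89 when 1 array was left out, where the lone array of a group was assumed to vary like the other groups. The array letter as a replicate block gave 98. By their values, A and B matched the labels' replicates 1 and 2. The A minus B differences of the groups correlated at 0.0936 to 0.287 over probes in 6 pairs of groups, and not all exceeded 0.1, so pairing was not taken as given. The pair below 0.1 was WT with 0.5 µM SAHA, and for the 2 SAHA groups compared here the correlation was 0.247. The 11 probes with a measured difference of at least 2-fold (10 with the 0.5 µM level detected) became 4 without background correction, with the other background fit or with the series matrix, 19 with median scaling, 5 with strict detection, 1 with the SAHA arrays alone, and between 1 and 12 when 1 of the 8 arrays was left out. Against untreated TR1, calls at 0.5 µM rose to 1526 with the variance trend and ranged from 203 to 1224 when 1 of the 8 arrays was left out, and at 1 µM from 1724 to 3790. Probes that appeared at 1 µM numbered 92 with a limit of 0.05 on both sides and 3 with limits of 0.01 and 0.1, and those that disappeared 95 and 1. Leaving out a SAHA array gave 7 to 128 that appeared and 4 to 57 that disappeared. With median scaling, where the median over all tested probes moved from -0.004 to 0.0505, list medians were 0.239 for histone deacetylases, 0.138 for histone genes, 0.208 for CDK inhibitors, 0.0908 for DNA replication, 0.129 for mitosis, 0.0928 for TRAIL signalling, -0.0185 for the BCL2 family, -0.0816 for T cell receptor signalling, 0.0144 for T lineage factors, -0.0226 for MYC and ribosome biogenesis, 0.140 for antigen presentation, 0.242 for neuronal genes and -0.195 for T cell markers. Without the filter they were 0.107 for histone deacetylases, 0.0817 for CDK inhibitors, -0.0296 for the BCL2 family, -0.117 for T cell receptor signalling and 0.0747 for neuronal genes. With the median over all probes of a gene they were -0.0443 for the BCL2 family and -0.132 for T cell receptor signalling. Shifts beyond that of all probes have a cause that was not tested.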

Other observations

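Further genes with wide differences between the doses missed the threshold, and they are given here after their values were seen. TSC22D1, a leucine zipper protein induced by TGF-beta, read 7.18 and 6.95 at 0.5 µM and 8.29 and 7.83 at 1 µM on one probe (adjusted p 0.0808 in limma). On its brighter probe it read 9.41 and 9.54 against 10.03 and 10.14 (difference 0.61, adjusted p 0.0555). ZDHHC11, of the palmitoyltransferase family, read 7.70 and 7.61 against 8.64 and 8.55 (adjusted p 0.0575). For both genes the doses did not overlap.

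Among the uncalled decreases, PLD6, a mitochondrial phospholipase D family member, read 6.80 and 6.65 at 0.5 µM and 5.82 and 5.72 at 1 µM, against 7.78 and 7.80 untreated (adjusted p 0.0626 in limma). KRT1, a keratin, read 8.80 and 8.84 against 7.91 and 7.81, with 9.42 and 9.51 untreated (adjusted p 0.0781). The WT duplicates, which enter the estimate of the spread, were 8.21 and 7.62 for PLD6 and 8.29 and 7.60 for KRT1, farther apart than the duplicates at either dose.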
